A study of Petunia x hybrida with 22 samples.

Results

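H3K4me3 was compared between evening and morning in the petunia corolla, the ring of petals that opens, colours and scents the flower. The data were the 4 libraries labelled as H3K4me3 ChIP, 2 from 7AM and 2 from 7PM, out of 22 samples in the series. From them the authors deposited 27658 of the 125384 listed islands, an island being an interval of enriched 200 bp windows. All islands in the lists of this mark were taken, 8420 from replicate 1 and 19238 from replicate 2. Both groups were corolla tissue of Petunia x hybrida cultivar Mitchell, grown in a greenhouse with 14 h of light from 6AM to 8PM and 10 h of dark, and fixed with 1% formaldehyde. They differed in the hour of collection, 7AM or 7PM. The labels call the replicates biological without saying how many flowers or plants went into each. The lists carry no gene names and no annotation was used here, so the tissue could not be checked against marker genes, and places are given by scaffold, in the names and positions of the deposited lists (their genome build is not given in the sources used here).

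H3K4me3 is trimethylation of lysine 4 on the tail of histone H3. In plants, as in other eukaryotes, it is written by SET-domain methyltransferases and sits mostly over the first nucleosomes of genes that are transcribed, and its amount at a gene often goes with how strongly that gene is used. Petals of night-scented petunias run a daily programme of scent synthesis and emission controlled by the circadian clock, and clock genes in plants are known to gain and lose H3K4me3 over the day. In a ChIP of whole tissue, fewer cells carrying the mark and less mark per cell cannot be told apart.

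Most places at which both replicates listed a change had less H3K4me3 in the evening. Of 1866 such regions, 1657 were lower at 7PM in both replicates, 186 were higher in both and 23 went in opposite directions. The lower regions were well marked in the morning, with median densities of 3.88 and 2.65 CPM (reads scaled to 1000000 per library) per kb at 7AM in replicates 1 and 2, and 1.63 and 0.923 at 7PM. The higher regions were weakly covered in the morning, with medians of 0.495 and 0.662 at 7AM. At 7PM they had 1.24 and 1.62, which is below the evening level of the lower regions in replicate 1 and above it in replicate 2. All folds here are relative to the library totals, which in replicate 1 were 34316179 morning and 51116862 evening reads, and in replicate 2 30199066 and 27700344. The evening library was thus 1.49 times as deep as the morning library in replicate 1 and 0.917 times as deep in replicate 2, and the part of this difference in the lists was not tested. How strongly the ChIP enriched each library was not tested either, so a different enrichment at 7PM is not separated from a change of the mark.

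The 4 lists differed in number, length and density. In replicate 1 the authors' deposited lists held 5143 islands lower and 3277 higher at 7PM, and in replicate 2 they held 9569 lower and 9669 higher. Lower islands were the longer ones, with a median of 1000 bp in replicate 1 and 1400 bp in replicate 2, against 800 bp for higher islands in both. Long islands were mainly lower: 111 lower islands of replicate 1 spanned 5 kb or more and 0 higher ones did, and in replicate 2 the numbers were 252 and 84. The lower islands covered 7.41 Mb and 16.3 Mb in replicates 1 and 2, the higher ones 3.15 Mb and 10.2 Mb.

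The lower islands of replicate 1 held 3.08% of all reads at 7AM and 1.34% at 7PM, and those of replicate 2 held 3.22% and 1.29%. The higher islands went from 0.154% of the reads to 0.372% in replicate 1, and from 1.00% to 2.29% in replicate 2. Each list therefore moved a small share of its library, and the lower lists held similar shares in both replicates although replicate 2 listed more islands.

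**Figure D1:**
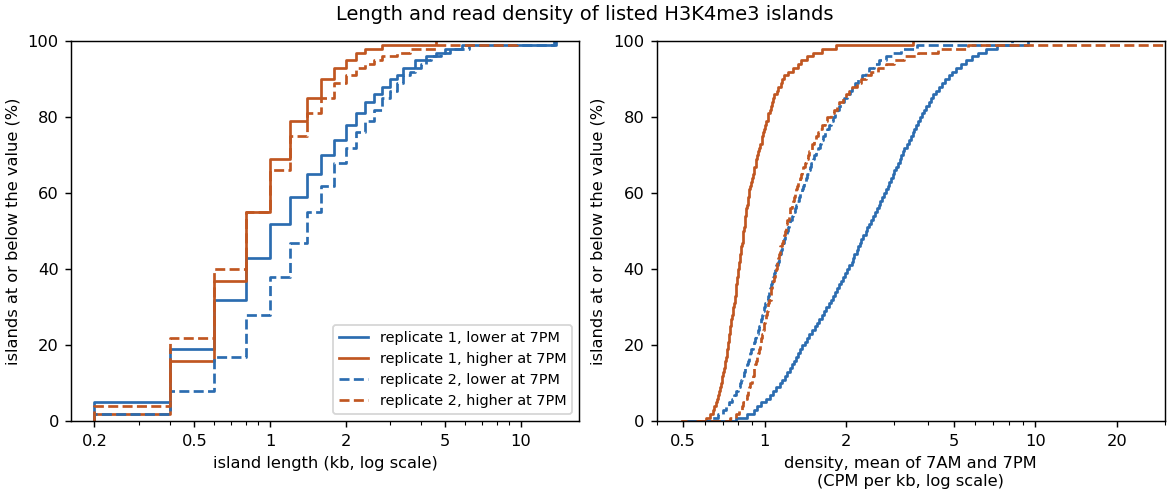
Cumulative share of listed H3K4me3 islands (%) by length (kb, log scale, left) and by density averaged over the 7AM and 7PM libraries of the pair (CPM per kb, log scale, right), for the lower (blue) and higher (orange) lists of replicate 1 (solid) and replicate 2 (dashed), relative to library totals. Lower islands were longer in both replicates, and the lower list of replicate 1 was the densest, with a median of 2.36 CPM per kb against 0.835 for its higher list, while the lists of replicate 2 had medians of 1.21 and 1.19.

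Changes were mostly close to the 2-fold limit of the lists, whose smallest deposited fold was 2.00. The median fold in CPM was 2.26 for lower and 2.38 for higher islands of replicate 1, and 2.52 and 2.36 in replicate 2. Folds of 4 or more were reached by 113 lower and 111 higher islands of replicate 1, and by 1055 lower and 390 higher islands of replicate 2. At 3 lower islands of replicate 2 the evening library had 0 reads. The first, on Peaxi162Scf00047 at 1213401 to 1213800, had 34 reads at 7AM, which makes it at least 10.4-fold lower when the evening is set to a floor of 3 reads per library. It was not part of a region shared with replicate 1, while the other islands with 0 reads were in regions lower in both replicates.

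Many listed islands rest on few reads. The better covered library of the pair had a median of 114 reads per lower and 50 per higher island in replicate 1, and of 67 and 38 in replicate 2. In replicate 2, 66.1% of the higher islands had fewer than 50 reads in that library, against 34.7% of the lower ones, and in replicate 1 the shares were 48.2% and 28.9%. Among islands with 50 or more such reads the share lower at 7PM was 68.3% in replicate 1 and 65.6% in replicate 2, where it had been 61.1% and 49.7% over all islands.

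The balance of lower and higher islands varied with density, and differently in the 2 replicates. In replicate 1 the share of lower islands rose from 3.57% of 869 islands at up to 0.75 CPM per kb to 59.6% between 1 and 1.5 and to all 857 islands above 4. In replicate 2 it went from 83.0% of 646 islands at up to 0.75 CPM per kb to 44.7% between 1 and 1.5, was 56.3% between 1.5 and 2, 55.8% between 2 and 3 and 46.7% between 3 and 4, and came to 17.7% of 288 islands above 4. Above 4 CPM per kb islands were thus lower in the evening in replicate 1 and mostly higher in replicate 2.

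The densest islands of all were confined to one list. Above 10 CPM per kb there were 21 islands, all of them higher at 7PM in replicate 2, with folds of 2.00 to 2.84, and 0 of them were listed in replicate 1. The 4 with the most reads held 43043 morning and 79985 evening reads, or 0.143% and 0.289% of the library and 12.6% of the evening reads of the list, with folds of 2.00 to 2.04. On Peaxi162Scf00798 at 242601 to 247800 the 7AM library had 19147 reads and the 7PM library 35660. Of the 21 islands, 4 overlapped an island of another mark, which was a higher H3K27ac island in a single replicate each time. The threshold of 10 CPM per kb was chosen after the values were seen.

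How often an island of one replicate was listed with the same direction in the other also depended on density for lower islands. For lower islands of replicate 2 this share rose from 5.41% at up to 0.75 CPM per kb to 27.4% between 1.5 and 2, 45.5% between 2 and 3 and 64.7% above 4. For lower islands of replicate 1 it rose from 6.45% to 30.3%, 44.5% and 45.9% (3 to 4 CPM per kb) and was 31.5% above 4. Higher islands recurred at 4.74% to 8.99% from replicate 1 and 0.413% to 2.27% from replicate 2 in bins of at least 20 islands, with no rise towards dense islands in replicate 2. Length went with this share in one replicate and not in the other. Of the lower islands of replicate 1, 15.5% of those of up to 400 bp and 53.4% of those over 3200 bp were listed alike in replicate 2, while for those of replicate 2 the share was 26.0% at up to 400 bp, 14.3% between 800 and 1600 bp and 19.2% over 3200 bp.

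**Figure D2:**
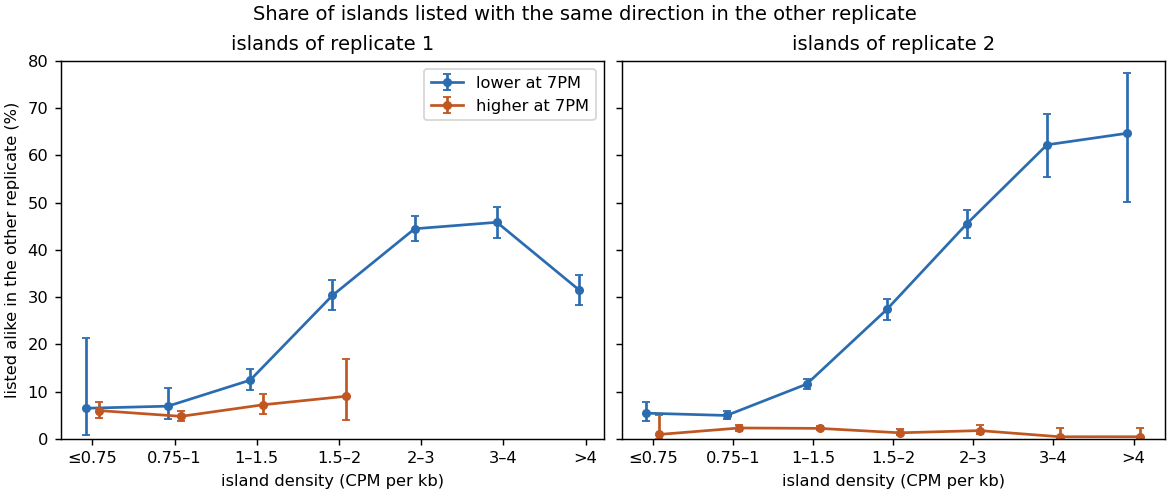
Share of listed islands (%) that overlapped by 1 bp or more an island of the same direction in the other replicate, by density (CPM per kb, mean of the pair), for islands of replicate 1 (left) and replicate 2 (right). Points are bins of at least 20 islands, and bars are exact (Clopper-Pearson) 95% binomial intervals, which take islands as independent draws. The share for lower islands reaches 45.9% in replicate 1 and 64.7% in replicate 2, and for higher islands it stays at or below 8.99% and 2.27%.

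Most islands were not listed alike in the other replicate. The share that was came to 32.3% and 17.6% of the lower islands of replicates 1 and 2. Of the higher islands it was 5.74% and 1.94%. Islands of the 2 replicates that overlapped were joined into regions, and 1843 of the 1866 regions (98.8%, 95% exact binomial interval 98.2 to 99.2) had one direction. Both lists had already been cut at 2-fold, so what follows for these regions describes a chosen set and does not show how much of the genome changed. The median log2 fold of 7PM over 7AM, with 1 read added to each count, was −1.19 in replicate 1 and −1.39 in replicate 2 over the lower regions, and 1.18 and 1.17 over the higher ones. The fold was larger in replicate 2 at 1187 of the 1657 lower regions (71.6%) and at 96 of the 186 higher ones. Lower regions beyond 4-fold numbered 22 in replicate 1, 241 in replicate 2 and 12 in both, and higher ones 0, 5 and 0. Within the lower regions the size of the fold in one replicate said little about its size in the other (Pearson's r 0.254, Spearman's rho 0.198 over 1657 regions), and within the higher ones less (0.068 and 0.114 over 186). These are descriptions over regions that share their libraries and the 2-fold limit.

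**Figure D3:**
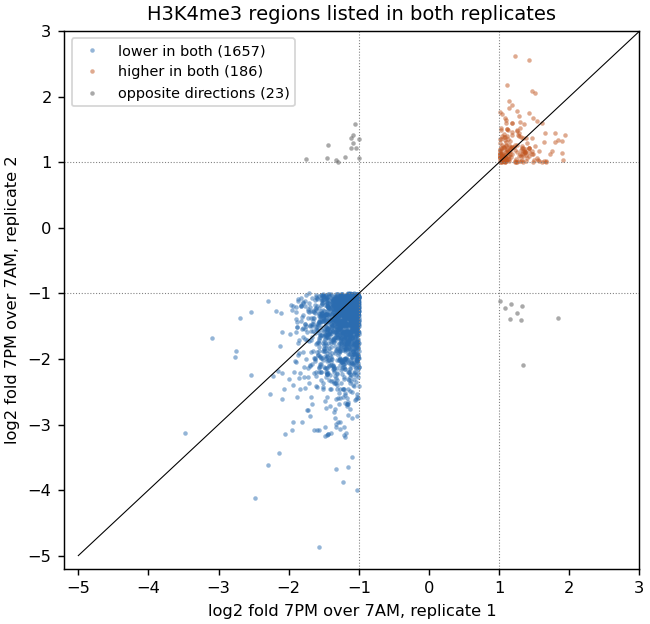
Log2 fold of 7PM over 7AM (1 read added, scaled to library totals) in replicate 1 (x axis) and replicate 2 (y axis) at the 1866 regions listed in both replicates. Dotted lines mark the 2-fold limit of the lists and the solid line marks equal folds. Of the lower regions, 71.6% lie below the solid line, towards larger folds in replicate 2, and 23 grey points lie in the opposite quadrants.

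An edgeR quasi-likelihood model with a replicate block, fitted to the 4 libraries over all 1866 regions, called 98.7% of them at a Benjamini-Hochberg adjusted p under 0.05, 88.7% as lower and 9.97% as higher. These were 1656 lower and 186 higher regions, which restates the choice of regions and is not read further. The region listed lower that did not pass was on Peaxi162Scf00003 at 2816801 to 2817200, with 48 morning and 35 evening reads in replicate 1 and with 34 and 1 in replicate 2 (edgeR, Benjamini-Hochberg adjusted p = 0.0639). Both 7AM densities lay above both 7PM densities at 1597 lower regions (96.4%), and the reverse held at 184 higher ones (98.9%). Within each pair this separation was fixed by the 2-fold limit of the lists, so it too mostly restates the choice of regions. Scaling by TMM, which centres these regions on no change and so moved all log2 folds up by a mean of 1.24, left 18 lower calls beside 186 higher ones (8.82% lower in place of 89.9%). A fit with no block left 16 lower and 0 higher calls (467 and 44 at an unadjusted p under 0.05). With region length as an offset as well, it left 760 lower and 87 higher calls.

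A library spread evenly over the scaffolds would have at most 0.854 CPM per kb, taking 1170.5 Mb as the sum of scaffold spans up to the last listed island of any mark. Both 7AM libraries were above this level at each of the 1657 lower regions. This was largely set by the listing, which takes islands through their better covered hour. The lowest 7AM density of any lower island was 0.765 CPM per kb in replicate 1 and 0.773 in replicate 2. The lowest 7PM density of any higher island was 0.755 and 0.842. In the evening 137 of the lower regions (8.27%) were under the even level in replicate 1 and 724 (43.7%) in replicate 2. The higher regions started from under it, 174 of 186 (93.5%) in replicate 1 and 153 (82.3%) in replicate 2, and at 7PM 2 and 0 remained under it. The input samples, which would give the local background, were not analysed here.

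**Figure D4:**
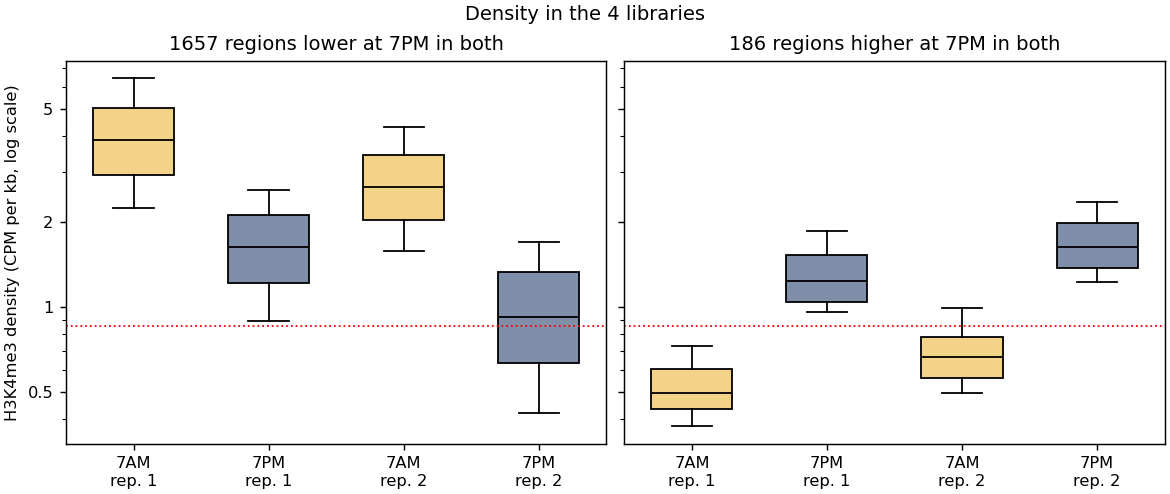
H3K4me3 density (CPM per kb, log scale) in the 4 libraries at the 1657 regions lower (left) and the 186 regions higher (right) at 7PM in both replicates, relative to library totals. Boxes span the quartiles with the median as a line, whiskers the 10th to 90th percentiles, and the red dotted line is the uniform level of 0.854. Lower regions go from well above the line in the morning to near it in the evening of replicate 2 (median 0.923), and higher regions cross it upwards.

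Borders were often shared. The islands of both replicates began and ended at the same windows at 489 lower regions (29.5%) and 18 higher ones (9.68%), and both borders lay within 200 bp at 986 (59.5%) and 69 (37.1%). Where the lengths of lower regions differed, the island of replicate 1 was longer at 784 and that of replicate 2 at 333. Because of this a region's reads in the 2 pairs can cover different lengths.

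The lower regions with the largest changes were chosen by fold, so the size of their loss restates the ranking. They were ranked by the smaller of the 2 replicates' folds, among called regions whose better covered library had 50 reads or more in both pairs. The first, on Peaxi162Scf00047 at 2205001 to 2206200, had densities of 4.75 and 2.81 CPM per kb at 7AM and 0.411 and 0.289 at 7PM, which is 11.1-fold lower in replicate 1 and 8.76-fold lower in replicate 2. The sixth, on Peaxi162Scf00738 at 431001 to 435400, was the best covered of the 10, with 1305 morning and 519 evening reads in replicate 1 and with 704 and 158 in replicate 2. Its densities of 8.64 and 5.83 CPM per kb in the morning and 2.31 and 1.43 in the evening did not overlap, as at 96.4% of all lower regions. Its log2 fold was −1.96 ± 0.085 (SD, n = 2 replicate pairs).

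Next in the ranking was Peaxi162Scf00274 at 434801 to 437200, with 162 morning and 66 evening reads in replicate 1 and with 95 and 17 in replicate 2 (log2 fold −2.07 ± 0.31). On Peaxi162Scf00080 at 596801 to 601400, the pairs had 581 and 245 reads, and 118 and 13, and the replicates differed in size, 3.52-fold lower in replicate 1 over 4600 bp and 7.80-fold lower in replicate 2 over 1800 bp. The tenth lay on Peaxi162Scf00016 at 1703601 to 1704600, where both replicates had the same 1000 bp and the pairs had 266 and 113 reads, and 136 and 33, 3.49-fold and 3.70-fold lower. Over the 10 regions the 7AM densities were 2.36 to 8.64 CPM per kb in replicate 1 and 1.05 to 5.83 in replicate 2, and the 7PM densities at most 2.31 and 1.43. In replicate 1 the 10 evening values thus all lay below the 10 morning values, and in replicate 2 the ranges overlapped between regions.

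**Figure D5:**
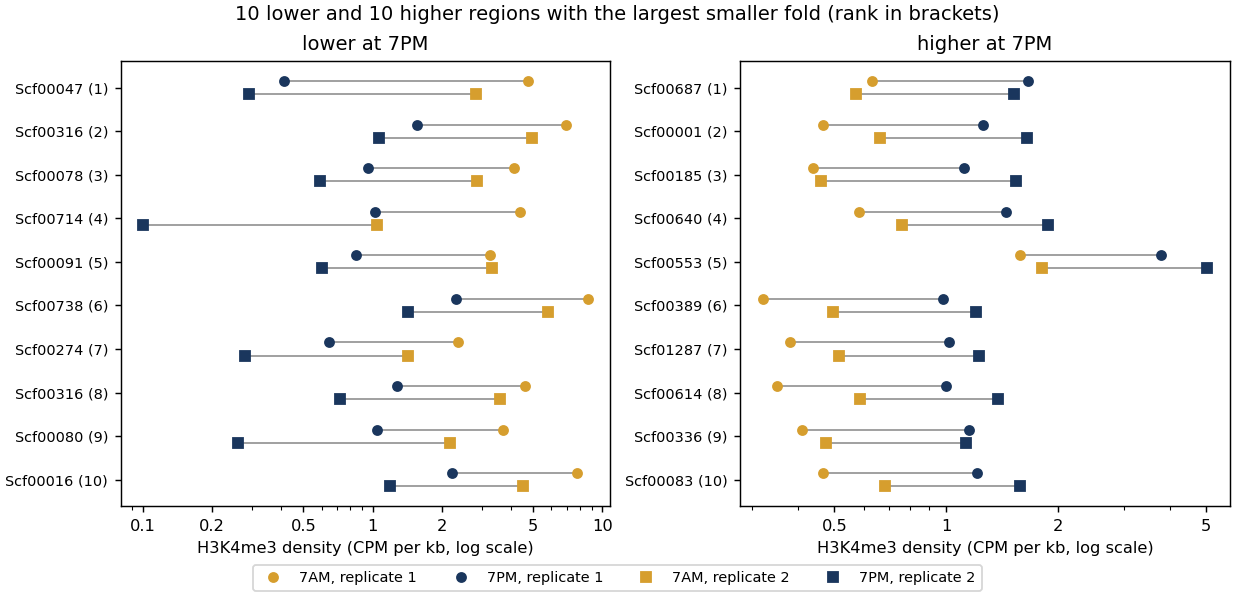
H3K4me3 density (CPM per kb, log scale) at 7AM (yellow) and 7PM (dark blue) in replicate 1 (circles) and replicate 2 (squares) at the 10 lower (left) and 10 higher (right) regions with the largest smaller fold, scaled to library totals. Scaffold names lack their prefix Peaxi162 and ranks are in brackets. At each of the 20 regions both 7AM points lie on one side of both 7PM points, as at 96.4% of all lower and 98.9% of all higher regions. They lie closest at Scf00714, where the 7AM value of replicate 2 (1.05) is just above the 7PM value of replicate 1 (1.03).

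The 10 ranked higher regions mostly rose from a weak morning signal, under 1 CPM per kb in both replicates at 9 of them. The exception was Peaxi162Scf00553 at 519001 to 521400, with 1.58 and 1.81 CPM per kb at 7AM and 3.77 and 5.04 at 7PM, 2.38-fold and 2.78-fold higher. Among the rest, Peaxi162Scf00389 at 781601 to 783800 had 11 morning and 50 evening reads in replicate 1 and 27 and 60 in replicate 2, and Peaxi162Scf00614 at 524201 to 526800 had 12 and 51, and 46 and 99. Peaxi162Scf01287 at 195401 to 197200 had 13 and 52 reads, and 28 and 61. These rises were 2.32-fold to 2.85-fold and rest on at most 99 reads per library.

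The longest lower regions were broad domains seen in both replicates. On Peaxi162Scf00129 the island reached over 13800 bp in replicate 1 and 13600 bp in replicate 2, and its density went from 4.31 to 1.45 CPM per kb and from 2.95 to 0.876. Peaxi162Scf00452 at 126001 to 139600 had 1296 morning and 882 evening reads in replicate 1 and 822 and 278 in replicate 2, which is 2.19-fold and 2.71-fold lower. The others were Peaxi162Scf00942 at 82001 to 93600 (log2 fold −1.45 ± 0.40), Peaxi162Scf01006 at 238601 to 248200 (−1.18 ± 0.027) and Peaxi162Scf00001 at 4797001 to 4805600 (−1.22 ± 0.042; SD, n = 2 replicate pairs for all 3). Under TMM edgeR called none of these 5, with log2 folds of −0.40, −0.017 and −0.16 for the first 3 and 0.079 and 0.035 for the last 2.

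The longest higher regions took their length from replicate 2. Of the 5, 3 rested on an island of 400 bp in replicate 1, among them Peaxi162Scf00040 at 2798001 to 2805600, where replicate 1 had 6 morning and 30 evening reads over 400 bp and replicate 2 had 417 and 778 over 7600 bp. Peaxi162Scf00012 at 1738601 to 1744600 was broad in both, with 3200 bp and 5400 bp, and had 46 and 147 reads, and 88 and 175, 2.11-fold and 2.16-fold higher. Its densities of 0.419 and 0.540 CPM per kb at 7AM and 0.899 and 1.17 at 7PM did not overlap, as at 98.9% of all higher regions.

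The densest lower region was Peaxi162Scf00316 at 488201 to 492000, with 1034 morning and 505 evening reads in replicate 1 and 587 and 188 in replicate 2, over 3800 and 1600 bp (log2 fold −1.56 ± 0.067, SD, n = 2 replicate pairs). The next, Peaxi162Scf00375 at 676201 to 679000, had the same 2800 bp in both replicates and densities of 10.8 and 6.78 CPM per kb at 7AM and 4.91 and 2.94 at 7PM. The densest higher region, Peaxi162Scf00153 at 1473201 to 1474600, had 2.00 and 2.73 CPM per kb at 7AM and 4.21 and 6.38 at 7PM, so its evening level was below the morning level of Peaxi162Scf00375 in each replicate.

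The opposite regions had few reads in at least 1 pair. On Peaxi162Scf01944 at 20801 to 22000, replicate 1 had 5 morning and 31 evening reads, and replicate 2 had 44 and 15. On Peaxi162Scf00000 at 1591201 to 1592800 the pairs had 21 and 82 reads, and 27 and 5. Of the 23, 14 had their lower value at 7PM in replicate 1 and at 7AM in replicate 2. The largest was Peaxi162Scf00228 at 291601 to 299000, with 950 and 707 reads in replicate 1 and 11 and 22 in replicate 2, where the island covered 7400 bp in replicate 1 and 400 bp in replicate 2; it was singled out after its values were seen. The median density of the opposite regions was 1.05 CPM per kb, close to the 1.02 of the higher regions. None of them had 50 reads in the higher library of both pairs, since all 1276 regions that did had one direction.

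Scaffolds differed in their number of lower regions. The 1657 lower regions lay on 668 scaffolds and the 186 higher ones on 171, with 104 scaffolds holding both. On 23 scaffolds there were 10 or more lower regions, 337 in all, while no scaffold had more than 3 higher ones. Peaxi162Scf00016 had 32 lower and 0 higher regions in 3.52 Mb, a rate of 9.08 per Mb against 1.42 over all scaffolds. All 94 islands of that scaffold in replicate 1 were lower, and 94 were lower and 8 higher in replicate 2. Together with Peaxi162Scf00207, Peaxi162Scf00045, Peaxi162Scf00074 and Peaxi162Scf00015 it held 109 lower regions, 6.58% of them on 1.13% of the summed span, and 0 higher ones. These scaffolds were chosen for having the most lower regions, so their high rate restates the choice. The spread over scaffolds was not tested. Peaxi162Scf00029 and Peaxi162Scf00377 had the most higher regions, 3 each, beside 2 and 1 lower ones.

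A scaffold's lean was alike in the 2 replicates. Over the 258 scaffolds with at least 10 islands in each, the share of lower islands had a Pearson's r of 0.831 and a Spearman's rho of 0.827 between replicates, as a description over scaffolds that share the libraries. This includes islands that were not at the same place in both. The share ran from 13.3% to 100% in replicate 1 and from 10.5% to 100% in replicate 2. It was over 50% in both replicates at 116 scaffolds and under 50% in both at 76, and 33 scaffolds were over 50% in replicate 1 and under it in replicate 2. Gene content and sequence of these scaffolds were not analysed here.

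Pairs of neighbouring regions reflected first of all that 1657 of the 1843 regions with one direction were lower. Of 1108 neighbouring pairs of shared regions, 961 were both lower, 13 both higher and 134 opposite, at a median gap of 143.1 kb. Among the 88 pairs less than 10 kb apart, 85 were both lower, 1 both higher and 2 opposite, and all 25 pairs less than 2 kb apart were both lower. No test of neighbours against this overall balance was made.

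A run of 4 lower regions within 40.6 kb of Peaxi162Scf00316, a window chosen after the values were seen, held 3 of the 39 regions that the naming rule picks. At 474001 to 476600 there were 414 morning and 206 evening reads in replicate 1 and 255 and 79 in replicate 2, and 11.6 kb on came the densest lower region. At 500801 to 503600 the pairs had 667 and 223 reads, and 357 and 71, 4.44-fold and 4.56-fold lower, and at 514001 to 514600 they had 95 and 39, and 65 and 12. At the densest region H3K27ac had 370 morning and 55 evening reads in its replicate 1 and 166 and 22 in its replicate 2.

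The other marks of the series were then looked up at the shared H3K4me3 regions, as overlaps of 1 bp or more. Counts for both replicates of a mark are overlaps with its regions, joined from the islands of both its replicates. Such a region can overlap an H3K4me3 region through an island of a single replicate. H3K36me3, a mark of transcribed gene bodies, was listed lower at 654 of the 1657 lower regions (39.5%) in its replicate 1, at 871 (52.6%) in its replicate 3 and at 509 (30.7%) in both. These 509 met 508 of the 2418 regions at which H3K36me3 was lower in both (21.0%). It was listed lower at 0 of the 186 higher regions in either replicate, which leaves an exact 95% binomial interval up to 1.96%, and higher at 10 and 6 of them. The H3K36me3 lists as a whole held 3702 lower and 4021 higher islands in replicate 1, and 11648 and 5880 in replicate 3. Its regions with one direction in both replicates were 2418 lower and 146 higher. Lower H3K4me3 regions with H3K36me3 lower in both replicates had a median length of 2200 bp and 2.60 CPM per kb, against 1200 bp and 1.92 at the 640 without a listed H3K36me3 island, and nearly the same median log2 fold (−1.32 and −1.36). A longer region meets the 1 bp overlap more easily, so the difference in length is partly set by how the groups were made.

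The acetylation marks of active promoters and enhancers were looked up likewise. H3K27ac was lower at 440 of the lower H3K4me3 regions (26.6%) in replicate 1 and 245 (14.8%) in replicate 2, and at 201 (12.1%) in both, which met 198 of its 3680 own lower regions (5.38%). It was higher at 12 (0.724%) in replicate 1 and 68 (4.10%) in replicate 2. The H3K27ac lists lean lower as a whole, with 13115 lower and 3227 higher islands in replicate 1 and 11997 and 4977 in replicate 2. H3K9ac was lower at 813 (49.1%) in replicate 1 and 74 (4.47%) in replicate 2, where it was higher at 148 (8.93%). The H3K9ac lists differ in the same way as a whole, with 21714 lower and 5699 higher islands in replicate 1 and 5331 and 6415 in replicate 2. Joined H3K9ac regions lower in both replicates overlapped 86 (5.19%), which met 83 of the 1352 such H3K9ac regions (6.14%). These 86 exceed the 74 of replicate 2 because a joined region can overlap through its replicate 1 island alone. All 3 other marks were lower in both replicates at 19 lower regions. At 259 lower regions (15.6%) and 161 higher ones (86.6%) no island of another mark was listed in any replicate. The lists hold only places changed at least 2-fold, so a mark that is not listed may still be present.

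Among the named regions, Peaxi162Scf00047 at 2205001 had lower H3K9ac and H3K27ac islands in all 4 of their lists, with 70 and 14 H3K27ac reads in replicate 1, and 143 and 49 in replicate 2. None of the 10 ranked higher regions had a listed island of another mark. Among the other named regions, Peaxi162Scf01060 at 128001 to 131200 had 237 morning and 735 evening H3K4me3 reads in replicate 1 and 99 and 195 in replicate 2, 2.08-fold and 2.14-fold higher. There H3K9ac had 27 and 135 reads, and 23 and 193, and H3K27ac had 16 and 102, and 14 and 38, so that the 3 marks were listed higher together in both replicates of each. On Peaxi162Scf01290 at 301001 to 301200 the marks diverged, with H3K4me3 at 69 and 42 reads and at 55 and 8, while H3K9ac had 10 and 50, and 13 and 78. That is 2.42-fold and 5.71-fold less H3K4me3 beside 4.09-fold and 4.65-fold more H3K9ac, over a single 200 bp window of H3K4me3. These 2 were singled out after their values were seen.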

How the data were processed

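Reads were processed by the authors with cutadapt, Bowtie2 and SICER 1.1, per the submitters' processing notes. The settings, the genome build and the role of input were not given in the sources used here. A deposited list compares the 7PM with the 7AM library of one replicate and gives per island the read counts of both libraries, the same as CPM (reads scaled to 1000000 per library), a fold (a ratio) and p-values with an FDR (at most 0.00425 in these lists). Library totals were taken as count over CPM. A fold recomputed from counts plus 1 read and library totals matched the authors' deposited fold within a relative 1e-05 for all 125384 islands of the series. All island lengths were multiples of 200 bp, and islands of a replicate did not overlap.

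From these values, density was computed as CPM per kb, and islands of both replicates overlapping by 1 bp or more were joined into regions with counts summed per library. One region with both directions in a replicate was left out. Log2 folds have 1 read added. The 1866 regions entered edgeR 4.0.16 (R 4.3.3) with a robust quasi-likelihood fit and F test, library totals as library sizes and the replicate as a block, since each deposited list pairs the libraries of a number; with 2 pairs it was not possible to check that pairing from the data. Adjusted p-values are Benjamini-Hochberg, and measure only the spread between these samples. Joining of islands and the test were tested on simulated data. Exact (Clopper-Pearson) 95% intervals cover counting of islands or regions only, as these are neighbours on scaffolds and not replicates. Reads carried no molecular tags. In the deepest and shallowest H3K4me3 library 3 reads are 0.0587 and 0.108 CPM.

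Named are the 10 lower and 10 higher called regions with the largest smaller fold whose better covered library had 50 reads or more in both pairs, the 5 longest and 5 densest of each direction, opposite regions and the scaffolds with the most regions. The members and lists were chosen with earlier results of these data known. The alternatives tried were scaling by TMM or by median of ratios, DESeq2 1.42.0, fits without the block, left-out libraries, filters of 50 reads, FDR of 1e-05 or 3-fold, 50% reciprocal overlap, same borders, 1 region per scaffold, and 0.5 or 5 reads added.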

Additional observations from a re-analysis of the deposited data

How the results depend on the processing

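The balance of lower and higher H3K4me3 calls depends on scaling to library totals, and the number of calls on the scaling and the block. The calls left under other scalings kept their direction, 204 with TMM and 201 with median-of-ratios scaling. edgeR called 1656 lower and 186 higher regions with the replicate block, 18 and 186 with TMM, and 15 and 186 with median-of-ratios scaling (89.9%, 8.82% and 7.46% lower), where the selected regions themselves are centred. Without the replicate block it called 16 and 0 (467 and 44 at an unadjusted p under 0.05), and with region length as an offset as well 760 and 87. In that last fit, leaving out 1 library gave 0 to 372 lower and 0 to 73 higher calls: 0 and 0 without 7AM replicate 1 (34 and 0 unadjusted) or 7AM replicate 2 (330 and 4), 5 and 0 without 7PM replicate 2, and 372 and 73 without 7PM replicate 1; the lone library of a time is assumed to vary like the others. DESeq2 with the block called 1617 and 141. Fewer regions were tested with 50 reads (1227 lower and 49 higher of 1276), 50% reciprocal overlap (1475 and 101 of 1589), an FDR of 1e-05 (1551 and 118 of 1678) and the same borders (489 and 18 of 511). The share with one direction was 99.2% with reciprocal overlap, 99.5% with the FDR limit, 99.2% with the same borders, 98.9% with 1 region per scaffold, 100% of 79 regions at 3-fold and 100% of 1276 with 50 reads. The share of lower islands in replicate 1 (61.1%) was 68.3% with 50 reads, 61.9% with the FDR limit and 57.7% at 3-fold, and in replicate 2 (49.7%) it was 65.6%, 57.3% and 67.4%. Of the 39 named regions, 29 kept direction and call with TMM and 5 lost the call; 5 lower ones reversed, to log2 folds of 0.079 (Peaxi162Scf01006 at 238601), 0.035 (Peaxi162Scf00001 at 4797001), 0.085 (Peaxi162Scf00375 at 676201), 0.064 (Peaxi162Scf00401 at 26401) and 0.018 (Peaxi162Scf00091 at 670001). Without the block and without the length offset, 38 of the 39 lost the call.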
